A study of Mus musculus with 32 samples.

Results

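The cytotoxic granule genes described here are the granzymes Gzma, Gzmb, Gzmc, Gzmd, Gzme, Gzmf, Gzmg and Gzmk, the perforin gene Prf1, and Nkg7. They were taken by symbol, and all 10 were found among the 22609 genes of the culture and Rag1-/- host tables and among the 25277 genes of the day 4 and day 6 tables. The samples are E0771 cells, a line from a mammary carcinoma of a C57BL/6 mouse, with the collagen receptor gene Ddr1 intact (WT) or knocked out (KO). The groups were 2 KO (derivatives 3-6 and 3-7) and 3 WT (parental, EV and Ctrl) cultures, then 5 KO and 5 WT tumours grown in Rag1-/- mice, which lack mature T and B cells. In C57BL/6 mice, whose lymphocytes are intact, 5 KO and 4 WT tumours that had been moved there from Rag1-/- mice are titled day 4. Those titled day 6, also in C57BL/6 mice, were 4 tumours given an antibody against hDDR1 ECD, as the labels name it, where ECD commonly stands for extracellular domain, and 4 given IgG. The day 6 labels state no Ddr1 genotype for the tumour cells. The tumour titles name no derivative, and a difference between derivatives cannot be told apart from the loss of Ddr1. The labels do not say whether the tumours of a group came from separate mice or what a day is counted from. The p-values therefore measure the spread between these samples, which may be technical.

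Cytotoxic lymphocytes, mainly natural killer cells and CD8 T cells, store perforin and granzymes in secretory granules and release them onto a target cell. Perforin forms pores through which granzymes enter, and granzymes are serine proteases that cleave proteins of the target cell and can start its death. Gzmb sits in a cluster with related granzyme genes on mouse chromosome 14, some of which have no human counterpart, while Gzma and Gzmk lie side by side on chromosome 13.

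In the GENCODE annotation of GRCm38, the build that the submitters name as mm10, the cluster genes are protein-coding and lie on the minus strand of chromosome 14. Gzme lies at chr14:56117626-56120625, Gzmd at chr14:56129556-56132608, and Gzmg at chr14:56156582-56159579. Gzmf lies at chr14:56205263-56211417 and overlaps the antisense gene Gm4022, Gzmc at chr14:56231441-56234656, and Gzmb at chr14:56258838-56262260. Also on the minus strand, Gzma lies at chr13:113093825-113100981 and Gzmk at chr13:113171608-113225908, where it overlaps Esm1 on the opposite strand. Prf1 lies on the plus strand at chr10:61297833-61304680 and Nkg7 on the plus strand at chr7:43437073-43438249. Whether strand was used in counting is not given in the sources used here, so reads of Gzmf and Gm4022, or of Gzmk and Esm1, may not have been told apart.

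RefSeq promoters of GRCm38.p6, from 250 bases before to 50 bases after each start site, were matched for all 10 genes. The 5 cluster genes Gzmc to Gzmg had promoters that were 86.1% to 94.0% identical over their aligned bases in the 10 pairs, against 54.2% to 63.2% when Gzmb was aligned to each of the 5. A stretch of 95 bases upstream of each start site is shown because all 5 share it and differ within it. The coordinates, minus strand, are chr14:56234658-56234752 for Gzmc, chr14:56132598-56132692 for Gzmd, chr14:56120631-56120725 for Gzme, chr14:56211433-56211527 for Gzmf and chr14:56159600-56159694 for Gzmg. The capitals mark the 8 bases where Gzmc, Gzmf and Gzmg hold TGACGTCA, the full cyclic AMP response element. Counted from 1 at the first capital, Gzmd differs from that element by C4T and Gzme by G5A.
Gzmc: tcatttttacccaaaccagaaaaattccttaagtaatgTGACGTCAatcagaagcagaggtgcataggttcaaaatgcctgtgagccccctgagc
Gzmd: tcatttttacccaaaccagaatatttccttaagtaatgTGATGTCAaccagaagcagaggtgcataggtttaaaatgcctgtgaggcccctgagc
Gzme: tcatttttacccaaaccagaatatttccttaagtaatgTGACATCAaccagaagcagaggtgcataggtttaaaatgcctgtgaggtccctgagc
Gzmf: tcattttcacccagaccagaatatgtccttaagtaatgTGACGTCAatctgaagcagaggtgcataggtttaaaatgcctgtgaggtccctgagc
Gzmg: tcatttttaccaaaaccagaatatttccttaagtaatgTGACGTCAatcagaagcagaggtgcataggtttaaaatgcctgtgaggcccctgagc
The Gzmb promoter did not hold that element, and the 100 bases before its start site, at chr14:56262335-56262434 on the minus strand, are shown for contrast. The capitals mark an AP-1 motif (TGACTCA, here on the opposite strand) between 2 RUNX motifs (TGTGGT).
Gzmb: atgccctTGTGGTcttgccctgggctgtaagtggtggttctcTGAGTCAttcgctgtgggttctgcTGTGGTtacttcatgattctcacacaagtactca
Searched on both strands over 32544 distinct promoters, TGACGTCA was in 1.80% of them, TGACTCA in 5.19% and TGTGGT in 16.7%. Of the 10 members, TGACGTCA was in 3, TGACTCA in Gzmb alone, and TGTGGT in 9, all but Gzmk. All 3 with TGACGTCA are among Gzmc to Gzmg, and each of those 5 holds TGTGGT. Because their promoters are so alike, the members are not independent counts. The T-box motif AGGTGTGA was in 1.28% of promoters and, among the members, in Nkg7. None of the 20 matches in members overlapped another, and a match of letters is a description, not a bound site.

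The close relationship bears on how far reads could be assigned. Over aligned bases the transcripts of Gzmd, Gzme, Gzmf and Gzmg were 87.6% to 94.8% identical to each other, whereas Gzmc was 76.2% to 77.3% identical to them and Gzmb 73.9% to 77.8% identical to the 5 of them. Of all 50-base windows, 21.9% of those in Gzmd, 20.6% in Gzme, 19.8% in Gzmg, 7.36% in Gzmf and 4.14% in Gzmc also occurred in the transcript of another gene, always another granzyme. Gzma, Gzmb, Gzmk, Prf1 and Nkg7 had none. The counting of reads with several matches is not given in the sources used here, so the split between Gzmd, Gzme, Gzmf and Gzmg is less certain than the level of Gzmc or Gzmb.

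Reads recovered from the deposited values numbered 18967300 to 39732635 per library. Levels below are reads per 1000000 of these (RPM) or, where genes are compared with each other, RPM per kilobase of annotated exon (RPKM). Ddr1 was lower in KO than in WT in all 3 knockout comparisons, with log2 fold changes of -3.03 in culture, -2.34 in Rag1-/- hosts and -2.23 at day 4, all called by limma. With the antibody its log2 change was 0.24 and was not called. Of 4 epithelial markers for the labelled mammary tumour, the keratin gene Krt8 had 167 to 689 RPM over the tumour libraries. The other 3, Krt18, Epcam and Cdh1, were low in Rag1-/- hosts, at no more than 1.88, 2.36 and 1.68 RPM in any tumour there, so that Krt8 alone carries the epithelial label there. Changes are limma estimates on log2(normalized count + 1), which understates changes of weakly expressed genes, and a gene is called at a Benjamini-Hochberg adjusted p under 0.05 over all genes of its table with a mean of 10 or more.

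The cultured tumour cells were at or near 0 for every member. In 172528162 reads from the 5 cultures, 8 of the 10 genes had no read, and Gzme and Nkg7 had 1 read each, both in the parental WT culture. A count of 0 over these libraries allows up to 0.0174 RPM, counting error only. No member was abundant enough to be tested in culture, where 0.327% of the 11911 tested genes were called. In bulk tumours the level of a gene depends on how many cells make it and how much each makes, and fewer cells and less RNA per cell cannot be told apart here.

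In Rag1-/- hosts, the granzymes of the Gzmc to Gzmg block had lower group means in KO tumours than in WT tumours, and of them Gzmd and Gzmc fell by the test. Gzma and Gzmb, the most widely studied granzymes, had log2 changes near 0, and Prf1 and Nkg7 lay between. Of 9 members tested, 2 were called, both lower, beside a background of 22.7% of the 12795 tested genes called in either direction and 11.4% called lower. The share of members called was thus close to the background share. The members' median log2 change was -0.635, with 8 of 9 below 0, against a median of -0.003 over all genes tested.

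Gzmd encodes a granzyme of activated mouse lymphocytes. It had 3.90, 2.83, 3.05, 3.68 and 2.45 RPM in the 5 KO tumours, against 6.16, 4.55, 4.69, 7.41 and 4.42 RPM in the 5 WT tumours. All KO tumours lay below all WT tumours, and Gzmd was the only member whose groups did not overlap, which held for 15.0% of all genes tested. Its log2 fold change was -0.79 (SE 0.177, adjusted p = 0.00645). The gap rested on few reads, because the highest KO tumour had 93 reads (95% Wilson interval 3.182 to 4.774 RPM) and the lowest WT tumour had 90 (3.597 to 5.434 RPM). In the authors' deposited table its adjusted p was 0.00684.

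Gzmc was the most abundant granzyme by RPM and by RPKM in these hosts. It had 10.8, 14.1, 18.4, 11.9 and 14.9 RPM in KO tumours, against 28.1, 26.1, 16.8, 15.9 and 20.6 RPM in WT tumours. Of the 5 KO tumours, 4 lay below the lowest WT tumour, and KO replicate 3 lay among the lower WT tumours. The log2 fold change was -0.64 (SE 0.165, adjusted p = 0.0146), and the authors' deposited table gave an adjusted p of 0.0299.

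Gzme, Gzmf and Gzmg had changes of the same size but fewer reads and wider errors. Gzme averaged 1.32 ± 0.339 RPM in KO tumours and 2.11 ± 0.727 RPM in WT tumours (SD, n = 5 each), with a log2 change of -0.66 (SE 0.247, adjusted p = 0.0700). Gzmf averaged 1.64 ± 0.639 RPM in KO tumours and 2.70 ± 1.19 RPM in WT tumours, with a log2 change of -0.71 (SE 0.315, adjusted p = 0.123). Gzmg averaged 1.47 ± 0.603 RPM in KO tumours and 2.56 ± 1.41 RPM in WT tumours, with a log2 change of -0.78 (SE 0.350, adjusted p = 0.125). For each of the 3, all 5 KO tumours lay below the WT median, but the groups overlapped. None passed the adjusted threshold, and 5 members, these 3 with Gzmc and Gzmd, had an unadjusted p under 0.05, beside 36.1% of all genes tested. Leaving out WT replicate 5 raised the count of called members to 4. It added Gzme at -0.78 (adjusted p = 0.0418) and Gzmf at -0.94 (adjusted p = 0.0334). Over all genes that fit called 3093, the most of the 10 fits with a library left out, against 2904 with every library. Gzme alone also passed without KO replicate 2 (adjusted p = 0.0413).

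Prf1, the pore-forming protein, had 4.36, 4.67, 7.00, 5.92 and 4.34 RPM in KO tumours, against 6.87, 6.58, 5.01, 6.52 and 5.94 RPM in WT tumours. KO replicate 3 was the highest of all 10, while 3 KO tumours lay below the lowest WT tumour. The log2 change was -0.29 (SE 0.145, adjusted p = 0.176). Without KO replicate 3 it was -0.39 and passed, with an adjusted p of 0.0490. Nkg7, a granule membrane protein of cytotoxic lymphocytes, averaged 1.75 ± 0.351 RPM in KO tumours and 2.18 ± 0.361 RPM in WT tumours, with a log2 change of -0.35 (SE 0.179, adjusted p = 0.176).

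Gzmb, which cleaves after aspartate and acts on Bid and caspases, had 9.22, 6.92, 17.9, 10.6 and 9.46 RPM in KO tumours, against 12.97, 11.4, 8.86, 9.50 and 9.38 RPM in WT tumours. The highest and the lowest of the 10 values were both KO tumours. Its log2 change was -0.04, with a 95% confidence interval from -0.46 to 0.38. A fall or a rise within those bounds was thus compatible with the data. Gzma, a granzyme that cleaves after basic residues, had 5.99, 6.24, 12.2, 11.4 and 7.27 RPM in KO tumours, against 9.003, 8.86, 6.38, 6.52 and 8.60 RPM in WT tumours. Its log2 change was 0.05, with an interval from -0.37 to 0.46, and KO replicates 3 and 4 were above all WT tumours. Gzmk, a granzyme with a preference like that of Gzma, had 0 reads in the 5 KO tumours and 2 reads over the 5 WT tumours and was too low to test.

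**Figure D1:**
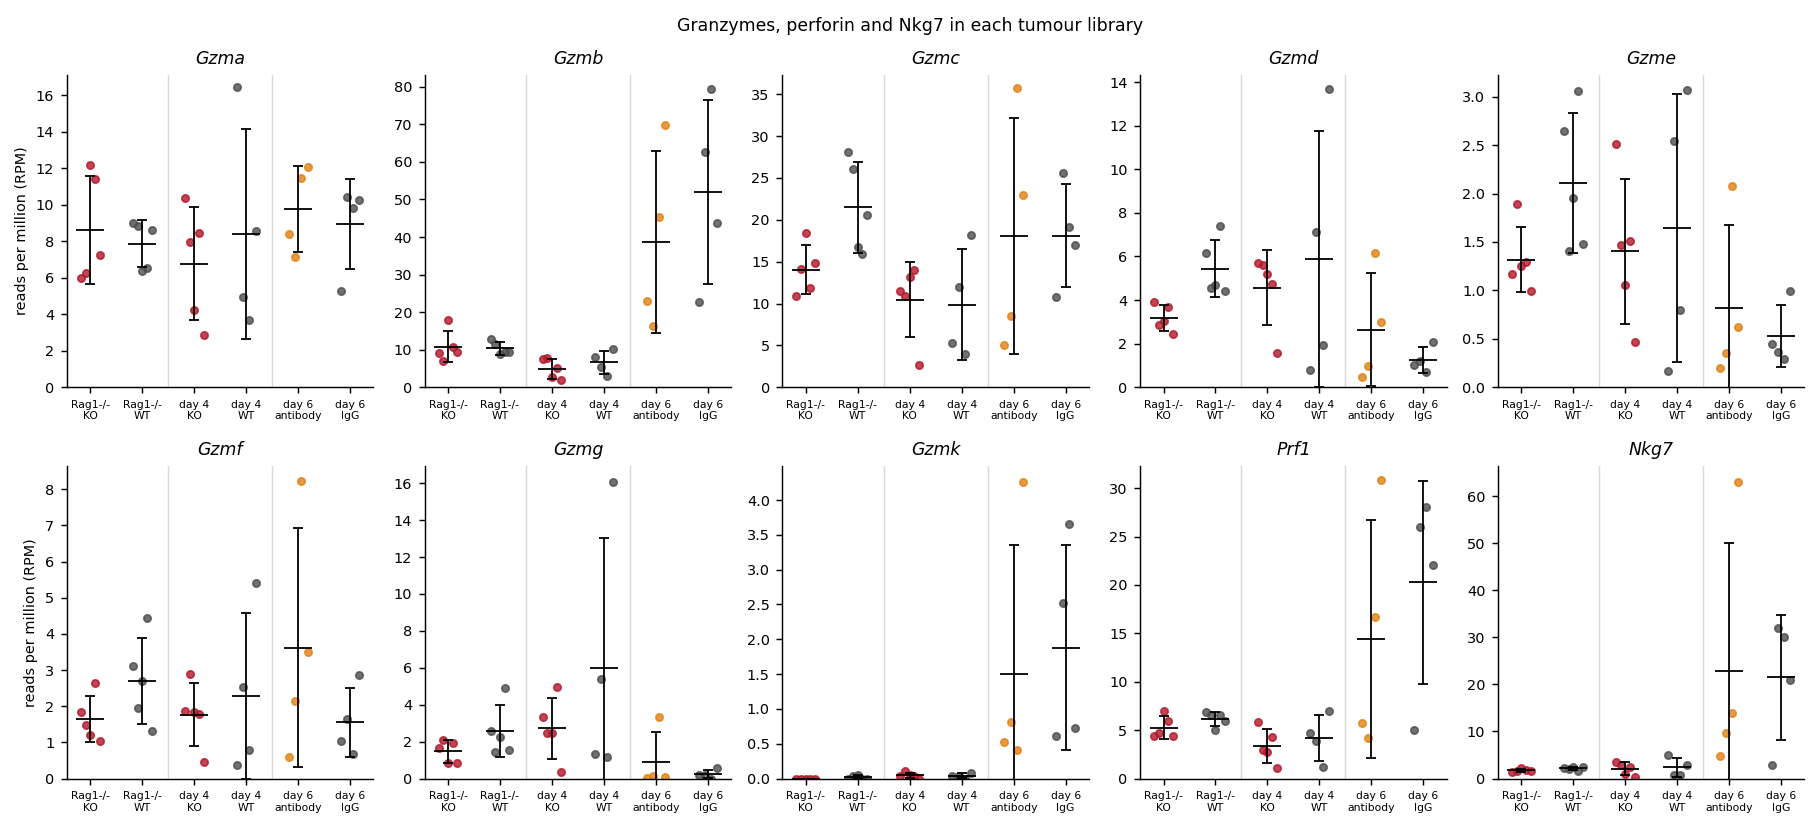
Level of each member in RPM (vertical axis, each panel with its own scale) in every tumour library, by group, KO or antibody left of WT or IgG. Points are libraries, and the black line and bar are the mean and SD, cut off at 0 where the bar would go below. The KO and WT tumours of Rag1-/- hosts separate for Gzmd, where the KO points lie between 2.45 and 3.90 RPM and the WT points between 4.42 and 7.41 RPM, and at day 6 the points of a group spread widely.

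The makeup of the members' RNA differed between the Rag1-/- host groups as a description. Gzmc to Gzmg together made 55.1% ± 5.89 of the members' summed RPKM in KO tumours and 65.4% ± 2.77 in WT tumours (SD, n = 5 each). Gzma and Gzmb made 19.2% and 16.8% in KO tumours, and 13.6% and 12.6% in WT tumours. For each Gzmb read there were 1.03 to 2.04 Gzmc reads in KO tumours, against 1.67 to 2.28 in WT tumours. Prf1 and Nkg7 had a small share in both, at 4.62% and 4.36% in KO tumours and 4.17% and 4.23% in WT tumours.

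Markers of the lymphocytes that could carry these genes were measured beside them. Of 7 natural killer cell markers tested in Rag1-/- hosts none was called, with a median log2 change of -0.27 and a summed level of 7.21 to 18.0 RPM in KO tumours, against 9.85 to 16.1 RPM in WT tumours. The KO range enclosed the WT range. Of the T cell markers, Cd3e had 1 read over the KO tumours and 0 over the WT tumours, and Cd3d had 2 and 4, so that the defining T cell receptor genes were near 0. The summed T cell list still reached 9.51 to 12.5 RPM in KO tumours, against 8.45 to 13.2 RPM in WT tumours, most of it from Cd4 and Lck. Both genes are also expressed outside the T cell lineage, Lck in natural killer cells and Cd4 in other leukocytes. Mast cell and basophil markers summed to 2.70 to 5.48 RPM in KO tumours, against 1.49 to 5.34 RPM in WT tumours, and none of 4 tested was called. Of 5 macrophage markers Mrc1 was called higher in KO tumours, with a log2 change of 0.64. Of the epithelial markers Epcam was called higher in KO tumours, at 1.94 to 2.36 RPM, against 0.305 to 0.577 RPM in WT tumours, with a log2 change of 2.15, while Krt8, Krt18 and Cdh1 were not called. Of 2 neutrophil and 2 B cell markers tested none was called, and the pan-leukocyte gene Ptprc had 68.0 to 84.6 RPM in KO tumours, against 63.1 to 77.7 RPM in WT tumours. The part of these markers in the Gzmc and Gzmd differences was not tested.

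In C57BL/6 hosts at day 4, no member differed between KO and WT tumours by the test, and single tumours of either group spread over a wide range. Of 9 members tested, 0 were called by limma, 0 had an unadjusted p under 0.05, and edgeR and DESeq2 also called 0. The limma background was 0.0354%, or 5 of the 14105 genes tested, while DESeq2 called 689 genes. The members' median log2 change was -0.24, against 0.003 over all genes tested.

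The 2 genes called in Rag1-/- hosts had small estimates with wide intervals here. Gzmc had 11.6, 10.8, 13.2, 13.9 and 2.71 RPM in KO tumours, against 5.26, 12, 3.92 and 18.2 RPM in WT tumours. Gzmd had 5.71, 5.63, 5.20, 4.73 and 1.59 RPM in KO tumours, against 0.799, 7.10, 1.94 and 13.7 RPM in WT tumours. Both ends of the range were WT tumours for Gzmd, while KO replicate 5 was far below the other KO tumours for both genes. The log2 changes were 0.09 for Gzmc (95% interval -1.15 to 1.34) and 0.18 for Gzmd (-1.48 to 1.84), with Gzmd at -0.41 by edgeR and -0.43 by DESeq2. Set against the Rag1-/- host estimates, the knockout effect differed by 0.73 for Gzmc (SE 0.583, adjusted p = 0.527) and by 0.97 for Gzmd (SE 0.768, adjusted p = 0.521). In this test of the difference itself, 0 of 9 members were called by limma or by DESeq2, and 0 had an unadjusted p under 0.05. Over all 11247 genes limma called 2.99%, and DESeq2 called more. For the other 7 members tested the estimate ran from -0.50 for Gzmb to 0.82 for Gzme. A difference between the hosts was therefore not detected for the members at this spread, and effects of the same size in both were within the intervals.

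The other members at day 4 also overlapped between the groups. Gzmg ran over a 13.3-fold range in KO tumours and a 14.1-fold range in WT tumours, with a log2 change of -0.76 (95% interval -2.72 to 1.20) that was -0.03 without WT replicate 4 and -1.27 without WT replicate 3. Gzmb had 7.53, 7.66, 2.79, 5.05 and 1.87 RPM in KO tumours, against 7.99, 5.42, 3.03 and 10.2 RPM in WT tumours, and its log2 change was -0.54 (-1.57 to 0.50). Prf1 had 5.80, 2.90, 2.74, 4.25 and 1.12 RPM in KO tumours, against 4.71, 3.92, 1.24 and 7.00 RPM in WT tumours, and its log2 change was -0.33 (-1.54 to 0.88), or -0.01 without KO replicate 5. Gzmb and Prf1 were lowest in the same tumour, KO replicate 5. Gzma had 10.3, 7.97, 4.24, 8.46 and 2.85 RPM in KO tumours, against 16.4, 4.95, 3.67 and 8.54 RPM in WT tumours, and Nkg7 likewise peaked in WT replicate 1, at 5.00 RPM. WT replicate 1 had the lowest Gzmd, Gzme and Gzmf of all 9 tumours with the highest Gzma. Gzmc to Gzmg made 23.1% of the member RPKM in that tumour. They made 56.7% to 74.5% in the other WT tumours and 55.6% to 75.6% in KO tumours. Gzmk had 6 reads over the KO tumours and 4 over the WT tumours.

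The natural killer cell markers summed to 23.2, 17.7, 8.52, 23.0 and 3.64 RPM in KO tumours, against 21.7, 6.67, 9.48 and 13.96 RPM in WT tumours. KO replicate 5, lowest in Gzmb, Prf1 and Nkg7, was also lowest in this sum, and 0 of 7 markers tested were called. Members and list did not run together in every tumour, since WT replicate 4, highest in Gzmb and Prf1, had a middling sum, and KO replicate 4, with a sum of 23.0 RPM, had 5.05 RPM of Gzmb. The T cell list summed to 5.09 to 17.1 RPM in KO tumours, against 4.95 to 10.2 RPM in WT tumours, and 0 of 5 tested were called. Its lowest value was in WT replicate 2. Mast cell and basophil markers summed to 1.495 to 49.2 RPM in KO tumours, against 3.70 to 7.83 RPM in WT tumours, and 0 of 4 tested were called. The epithelial marker Krt18 had 1.68 to 47.6 RPM in KO tumours, against 0.215 to 0.993 RPM in WT tumours, and Epcam had 1.03 to 19.9 RPM in KO tumours, against 0.387 to 0.811 RPM in WT tumours. Their log2 changes of 4.43 and 3.59 did not pass (adjusted p = 0.109 and 0.122), nor did that of Cdh1, at 2.53 (adjusted p = 0.255). The part of these markers in the members' values was not tested.

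In the day 6 tumours, Gzmb, Prf1, Nkg7 and Gzmk had higher mean RPM in both treatment groups than in any other tumour group, though for all but Gzmk the lowest day 6 tumours lay among the others. No member differed between antibody and IgG by the test. Of 10 members tested, 0 were called by limma, 0 had an unadjusted p under 0.05, and edgeR and DESeq2 also called 0. limma called 0 of 14155 genes, a background of 0%, with 1218 at an unadjusted p under 0.05, while edgeR called 0 and DESeq2 166. The members' median log2 change was -0.004, against -0.012 over all genes tested.

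Gzmb had 23.0, 16.3, 45.3 and 69.9 RPM in antibody tumours, against 22.6, 62.7, 79.4 and 43.6 RPM in IgG tumours. Prf1 had 5.76, 4.19, 16.7 and 30.8 RPM in antibody tumours, against 5.04, 26.0, 28.0 and 22.0 RPM in IgG tumours. In each group 1 or 2 tumours were low and the rest high, so the groups overlapped over most of their range. The log2 changes were -0.52 for Gzmb (95% interval -1.64 to 0.60) and -0.68 for Prf1 (-2.28 to 0.93).

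Nkg7 had 4.71, 9.73, 13.96 and 63.1 RPM in antibody tumours, against 2.98, 32.1, 30.2 and 21.0 RPM in IgG tumours. Antibody replicate 4 stood above the rest and IgG replicate 1 below, and the log2 change was -0.15 (-2.20 to 1.90). The sign of that change was not stable, as edgeR gave 0.09 and DESeq2 0.09. Gzmk had 0.528, 0.805, 0.405 and 4.26 RPM in antibody tumours, against 0.617, 2.52, 3.66 and 0.722 RPM in IgG tumours. It was again highest in antibody replicate 4, and its log2 change was -0.60 (-2.47 to 1.27), or -1.32 without antibody replicate 4 and -0.15 without IgG replicate 3. Gzma was the steadiest member, with 8.41, 7.15, 11.5 and 12.1 RPM in antibody tumours, against 5.28, 10.4, 9.79 and 10.3 RPM in IgG tumours and a log2 change of 0.14 (-0.46 to 0.74).

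The Gzmc to Gzmg block followed another tumour. Gzmc had 5.08, 8.54, 35.7 and 23.0 RPM in antibody tumours, against 10.8, 25.6, 19.1 and 16.9 RPM in IgG tumours. Gzmf had 0.604, 2.16, 8.24 and 3.49 RPM in antibody tumours, against 1.03, 1.64, 0.692 and 2.85 RPM in IgG tumours. Gzmg had 115 reads in antibody replicate 3, or 3.32 RPM, and 2 to 5 reads in the other 3 antibody tumours, against 0 to 16 reads in the IgG tumours. Antibody replicate 3 was thus the highest of the 8 tumours for Gzmc, Gzmf and Gzmg, and also for Gzmd at 6.16 RPM and Gzme at 2.08 RPM. The log2 changes ranged from -0.33 for Gzmc to 0.86 for Gzmf (95% interval -0.79 to 2.51). Without antibody replicate 3, those of Gzmd and Gzme were -0.03 and -0.35, against 0.55 and 0.24 with it.

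**Figure D2:**
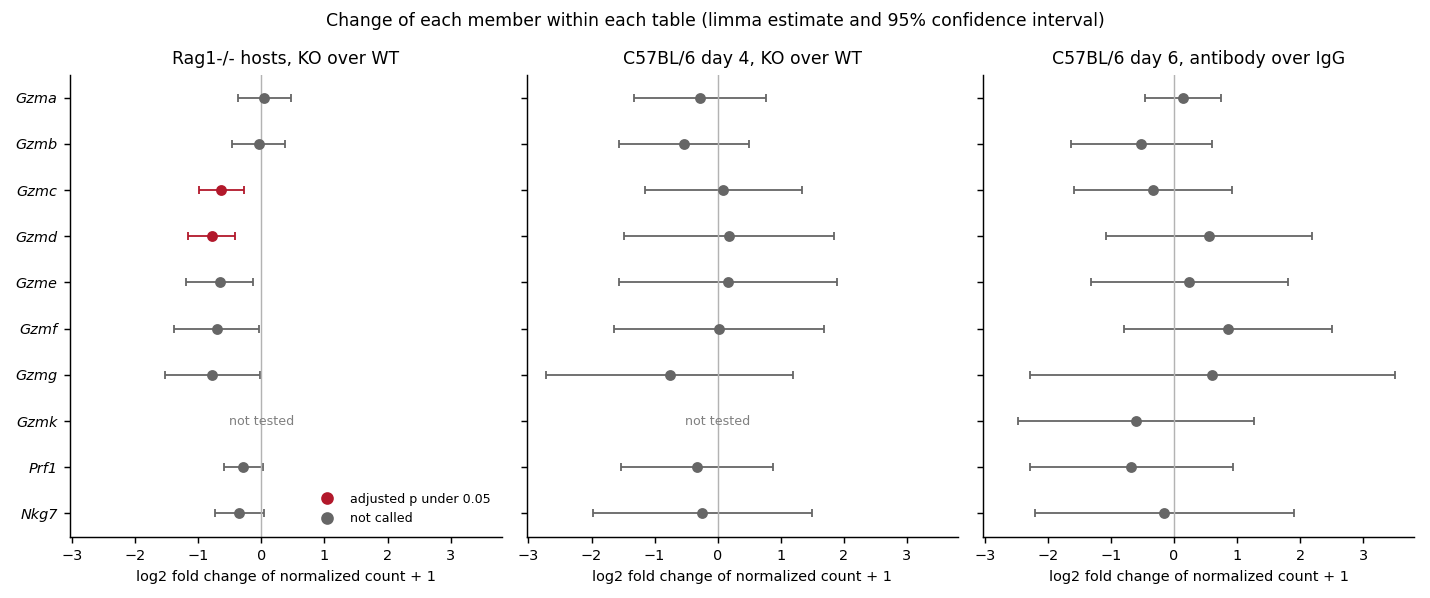
The log2 fold change of each member (horizontal axis, the same in the 3 panels) in Rag1-/- hosts (KO over WT), C57BL/6 day 4 (KO over WT) and C57BL/6 day 6 (antibody over IgG). Points are limma estimates, bars 95% confidence intervals and red marks an adjusted p under 0.05. Only Gzmc at -0.64 and Gzmd at -0.79 in Rag1-/- hosts are red, and the day 4 and day 6 intervals all include 0.

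T cell markers were detected in all day 6 tumours. The T cell list summed to 30.3, 64.4, 119 and 458 RPM in antibody tumours, against 23.8, 203, 175 and 152 RPM in IgG tumours, and Cd3e had 98 to 1081 reads in antibody tumours, against 37 to 672 in IgG tumours. The natural killer cell list summed to 13.5, 23.5, 54.9 and 136 RPM in antibody tumours, against 14.8, 76.0, 68.2 and 65.0 RPM in IgG tumours. Antibody replicate 4, highest in Nkg7, Gzmk and Prf1, was also highest in both lists, and replicate 1 of each group was the lowest of its group in both. Gzmb did not follow the same order, with its highest value in IgG replicate 3 and its lowest in antibody replicate 2. The macrophage list reached 4235 RPM in antibody replicate 4, against 1125 to 2259 RPM in the other antibody tumours. Mast cell and basophil markers summed to 35.5 to 358 RPM in antibody tumours, against 31.0 to 511 RPM in IgG tumours, with IgG replicate 4 highest. Krt18 had 1.79 to 93.3 RPM in antibody tumours, against 0.103 to 1.18 RPM in IgG tumours, with a log2 change of 4.73 that did not pass (adjusted p = 0.517). None of 10 T cell, 7 natural killer cell, 5 mast cell and basophil and 4 epithelial markers tested was called, and their part in the members' values was not tested.

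**Figure D3:**
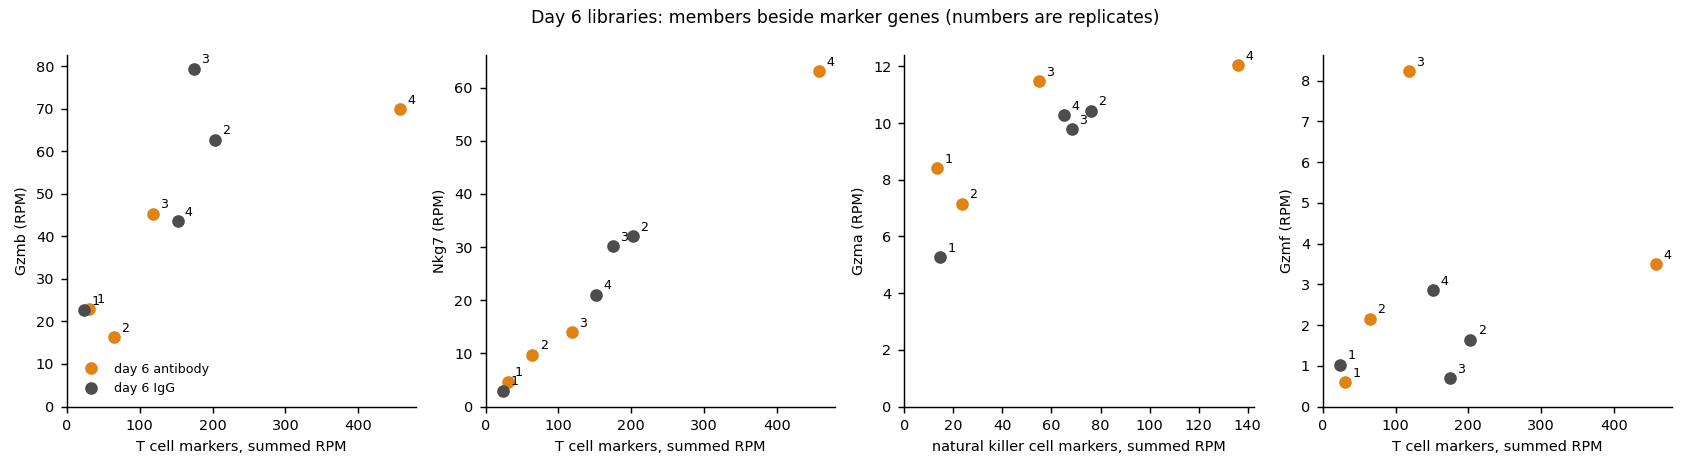
Level of 4 members (vertical axes, RPM) against the summed RPM of the T cell or natural killer cell marker list (horizontal axes) in the 8 day 6 tumours, antibody in orange and IgG in grey, numbered by replicate. Nkg7 is highest, at 63.1 RPM, in antibody replicate 4, where the T cell list is highest too at 458 RPM, whereas Gzmf is highest, at 8.24 RPM, in antibody replicate 3.

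Across the groups, the members fell into different orders of abundance. The levels come from separately normalized tables and were not tested against each other. Gzmb averaged 38.6 ± 24.3 RPM in day 6 antibody and 52.1 ± 24.5 RPM in day 6 IgG tumours (SD, n = 4 each), 10.8 ± 4.16 RPM in Rag1-/- KO and 10.4 ± 1.73 RPM in Rag1-/- WT tumours (n = 5 each), and 4.98 ± 2.65 RPM in day 4 KO (n = 5) and 6.66 ± 3.11 RPM in day 4 WT tumours (n = 4). When the groups were ordered by mean, the ranges of neighbouring groups overlapped. Every IgG tumour, at 22.6 RPM or more, lay above every Rag1-/- host and day 4 tumour, the highest being a Rag1-/- KO tumour at 17.9 RPM. Gzma averaged between 6.77 and 9.77 RPM in all 6 tumour groups, again with overlap between neighbours. Gzmk reads numbered 176 over the antibody and 190 over the IgG tumours at day 6, against at most 6 in any other tumour group. Some summed marker lists reached higher values at day 6. The T cell list had 23.8 to 458 RPM, against 4.95 to 17.1 RPM in the other tumours. The mast cell and basophil list had 31.0 to 511 RPM, against 1.49 to 49.2 RPM, and the natural killer cell list 13.5 to 136 RPM, against 3.64 to 23.2 RPM. Other lists went the other way from day 4 to day 6. The neutrophil list had 88.7 to 592 RPM at day 4, against 13.5 to 56.0 RPM at day 6. The epithelial list had 424 to 700 RPM at day 4, against 181 to 392 RPM at day 6. Their part in the levels of the members was not tested.

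Per kilobase of exon, Gzmc led the members in 19 of the 27 tumours, which were all 10 of the Rag1-/- hosts, 8 of 9 at day 4 and 1 of 8 at day 6. Gzmb led in 6 day 6 tumours, Gzma in day 4 WT replicate 1 and Nkg7 in day 6 antibody replicate 4. Gzmc to Gzmg made 28.9% ± 14.2 of the members' RPKM in antibody tumours and 25.9% ± 7.72 in IgG tumours at day 6 (SD, n = 4 each). At day 4 they made 62.1% ± 8.39 in KO tumours (n = 5) and 57.1% ± 24.1 in WT tumours (n = 4).

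**Figure D4:**
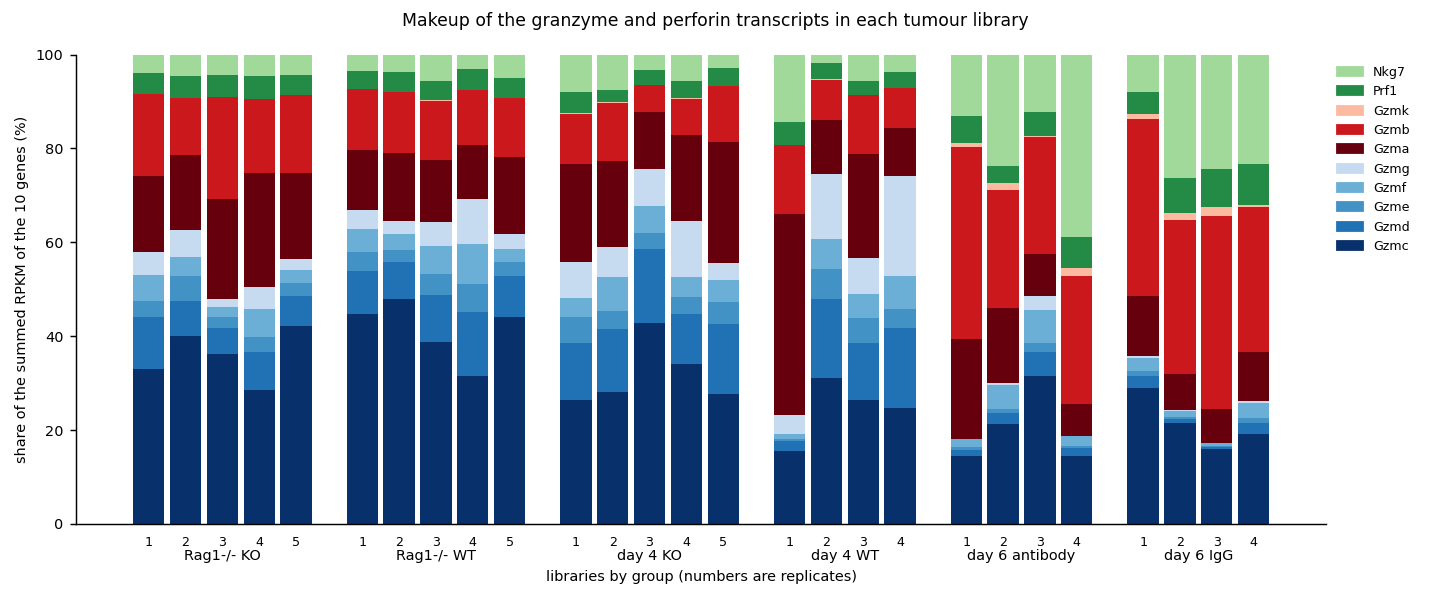
Share of the summed RPKM of the 10 members (vertical axis, %) held by each, with 1 bar per tumour library and replicate numbers below. Blue marks Gzmc to Gzmg, which hold 48.0% to 69.2% in the Rag1-/- hosts and 17.2% to 48.5% at day 6, red Gzma, Gzmb and Gzmk, and green Prf1 and Nkg7.

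Apart from Gzmc, members fell into 2 loose sets, Gzma, Gzmb, Prf1 and Nkg7 in one and Gzmd to Gzmg in the other. Pearson correlations of log2(normalized count + 1), as deviations from group means, are given as a description over 10, 9 and 8 libraries that share cells, depth and tumour makeup. Gzmb and Prf1 had r of 0.81 in Rag1-/- hosts, 0.86 at day 4 and 0.97 at day 6, and Gzma and Prf1 had 0.84, 0.79 and 0.96. Gzmd and Gzmf had 0.88, 0.98 and 0.96, and these transcripts share 40 of their 50-base windows, whose part in the correlation was not tested. Gzmc went with Gzmd at 0.85 in both C57BL/6 sets but at -0.41 in Rag1-/- hosts. With Gzmb it was positive throughout, at 0.61 in Rag1-/- hosts, 0.65 at day 4 and 0.76 at day 6. With Prf1 it had 0.495, 0.81 and 0.79 in the same order. The split into sets was not clean. Within a set, Prf1 and Nkg7 had 0.35 in Rag1-/- hosts. Across the sets, Gzmg and Prf1 had 0.81 at day 4, but -0.02 in Rag1-/- hosts and 0.03 at day 6.

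**Figure D5:**
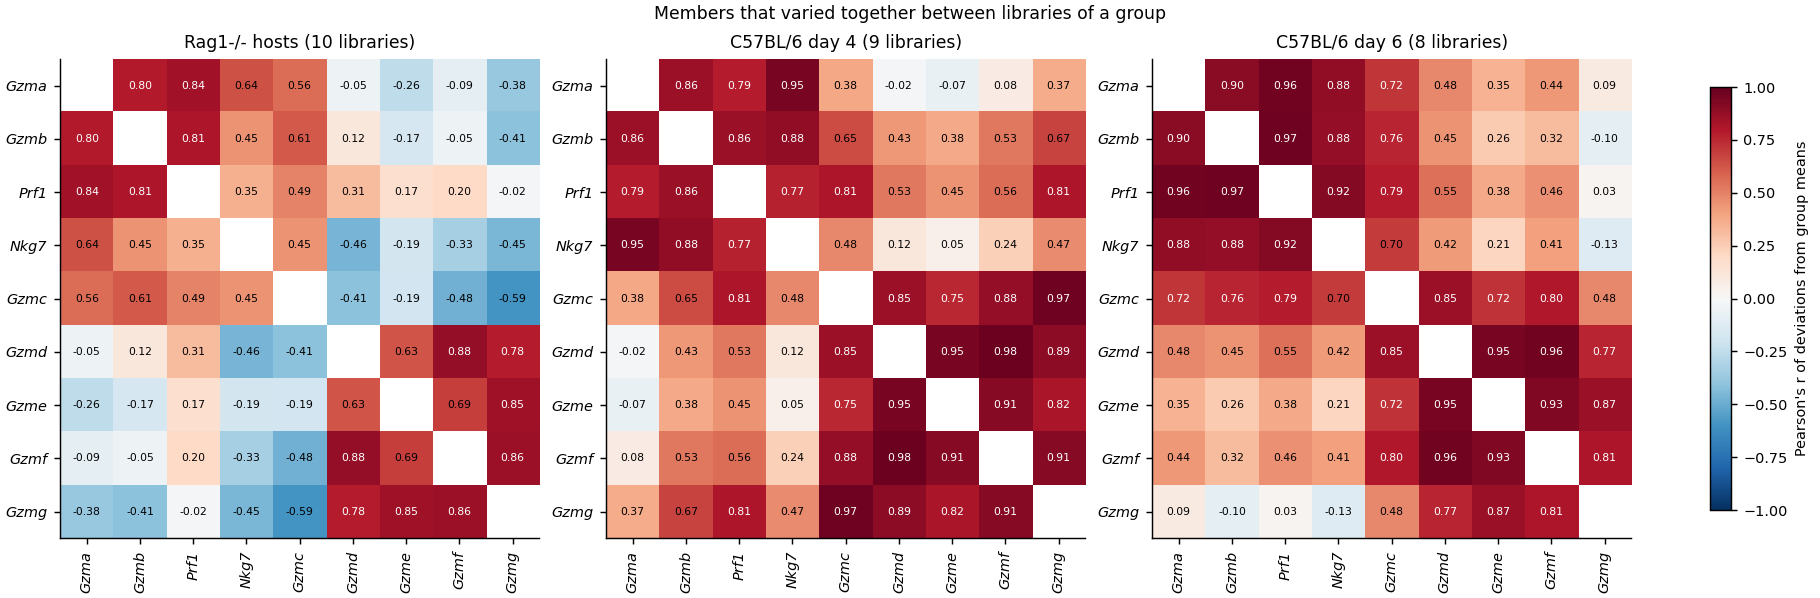
Pearson's r between pairs of the 9 members compared (colour and number in each cell) in the Rag1-/- host, day 4 and day 6 tables. Gzma, Gzmb, Prf1 and Nkg7 are positive with each other in all 3 panels and Gzmd to Gzmg likewise, and Gzmc is positive with Gzmd to Gzmg at day 4 and day 6 and negative in Rag1-/- hosts.

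The genes whose pattern was most like a member were taken as the highest mean of 3 such correlations, over 11206 genes and 27 tumours. For Gzma they included Ppm1h (0.86), Klrb1c (0.84), Trim12c (0.83) and Ikzf1 (0.82). For Gzmb they included Lck (0.86), Il2rb (0.82), Trim12c (0.82) and Ccdc88b (0.82). For Prf1 they were Ipcef1 (0.86), Il2rb (0.84), Kbtbd11 (0.80), Lck (0.80) and Klra7 (0.79). Lck, also read in the cultured tumour cells, encodes a T cell kinase. Klrb1c and Klra7 encode natural killer cell receptors and Il2rb a receptor chain for interleukins 2 and 15. For Gzmc the list held none of these and was Tarm1 (0.78), Spon1 (0.78), Grem1 (0.78), Atp8b4 (0.76) and Tle2 (0.76). Tarm1 encodes an activating receptor of myeloid cells, Spon1 an extracellular matrix protein, Grem1 a secreted BMP antagonist, Atp8b4 a phospholipid flippase and Tle2 a transcriptional corepressor. At day 4 the r of Atp8b4, Grem1 and Spon1 with Gzmc was 0.58, 0.59 and 0.64.

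The other genes of the pathway were a list of 60 in 6 roles. In Rag1-/- hosts 5 of 53 tested were higher and 7 lower in KO tumours, 12 in all, near the background share. Among other effectors, 1 of 7 was called, the chemokine Ccl5, with a mean normalized count of 1133 ± 212 in KO tumours and 1550 ± 203 in WT tumours (SD, n = 5 each) and a log2 change of -0.46. Among granule release genes, 2 rose and 1 fell of 11, with Stx11, a syntaxin needed for granule fusion, at 0.68, the granule membrane protein Lamp1 at 0.14 and Unc13d, a priming factor, at -0.39. Unc13d also had a log2 change of -1.08 in cultured KO cells (adjusted p = 0.0686) and -0.48 at day 4 (adjusted p = 0.141), neither of which passed.

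Of 7 genes for granzyme processing and storage, the cathepsin Ctsh rose by 0.22, and 2 fell, Calr, a perforin-binding chaperone, by 0.17 and Igf2r, a receptor that takes up granzyme B, by 0.32, all on the log2 scale. Of 6 inhibitor genes, the intracellular serpin Serpinb6b rose by 0.76. Of 13 regulators, the repressor Prdm1 rose by 0.56 and the transcription factor Irf4 fell by 0.95. Of 9 substrates and target cell receptors, Bid, a granzyme B substrate, fell by 0.21 and the lamin gene Lmna fell by 0.36. Of the 60 genes, 37 were also abundant enough to be tested in the cultured tumour cells, where no member was.

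None of the 37 tested in culture, 55 at day 4 or 57 at day 6 was called by limma, beside background shares of 0.327%, 0.0354% and 0%. In the test of the difference between day 4 and Rag1-/- hosts, 3 of 51 passed, beside 2.99% of all genes tested, namely Stx11 at -1.08 (adjusted p = 0.00850), Prdm1 at -1.31 (adjusted p = 0.0499) and Fas, a death receptor, at 0.94 (adjusted p = 0.0475). The sign is the day 4 effect minus the Rag1-/- host effect.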

How the data were processed

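RNA was sequenced from 5 cultures and 27 tumours with a stranded mRNA kit, per the labels' protocols. CASAVA, TopHat and DESeq2, with the build mm10, appear in the submitters' processing notes. Versions, annotation and counting rules are unnamed in the sources used here. The authors deposited 4 tables, each normalized by itself, and their values are a signal per gene and library (read counts after normalization). The p-values and adjusted p-values in them are the authors' own. A further 18 columns of means and fold changes were not used.

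In every library the values were whole multiples of 1 step, and dividing by it gave whole reads within 0.01 for 100% of values. RPM, RPKM and depth come from these reads. Intervals and floors (3 reads) cover counting error only. Groups follow the labels, and replicates were numbered as in the titles, or in accession order in culture.

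The 2 groups of a table were compared gene by gene in R 4.3.3 using limma 3.58.1 on log2 values with 1 added, allowing a mean-variance trend and keeping genes whose mean was at least 10. Tests were two-sided, with Benjamini-Hochberg adjustment over all of them. The knockout effects of 2 tables were compared from limma's estimates and standard errors, over genes tested in both. Gene-to-gene correlations carry no p. The steps were tested on simulated counts. The settings varied were the pseudocount (0.5, 5), the filter (none, 50), the scaling (upper quartile), the trend, the tool (edgeR 4.0.16, DESeq2 1.42.0, both run on the reads), a block for replicate number, and the libraries, each omitted once.

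All 10 members are reported, one by one or by their range. Of each pathway list, up to 5 called genes, or the gene of smallest p where none was called, could be named, and for Gzma, Gzmb, Gzmc and Prf1 the 5 genes of highest mean correlation, of which 2 are not reported here. The members and lists were chosen with earlier results of these data known. Symbols were matched as given, with 2 genes found under an older name (Gsdme and Adgre1) and Zfp683 in no table. Sequence work used Biopython 1.88.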

Additional observations from a re-analysis of the deposited data

Results flagged for a closer look

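Each member was checked in each tumour group of 4 or 5 for a library whose gap to its nearest neighbour took up most of the group's range (Dixon's 95% critical value, on normalized counts), and 5 of 59 checks flagged one, where chance flags about 1 in 20. Nkg7 in day 6 antibody replicate 4 was at 63.1 RPM, against 4.71 to 13.96 RPM in the other antibody tumours. Gzmk in the same tumour was at 4.26 RPM, against 0.405 to 0.805 RPM in the others. Gzmg in day 6 antibody replicate 3 was at 3.32 RPM, against 0.0503 to 0.161 RPM. Gzma in day 6 IgG replicate 1 was low at 5.28 RPM, against 9.79 to 10.4 RPM in the other IgG tumours. Gzmd in day 4 KO replicate 5 was low at 1.59 RPM, against 4.73 to 5.71 RPM in the other KO tumours. The same check on RPM flagged 6, these 5 and Gzmc in day 4 KO replicate 5, at 2.71 RPM, against 10.8 to 13.9 RPM in the other KO tumours.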

How the results depend on the processing

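Of the members, 2 were called in Rag1-/- hosts under every other setting except the replicate block, with 3, and leaving out 1 library, with 2 to 4. In the other comparisons the count was 0 throughout. The log2 change of Gzmc to Gzmg in Rag1-/- hosts was below 0 in all 97 fits, from -0.94 to -0.50. These fits reuse the same libraries and are not independent. Same-numbered libraries did not all deviate together in any comparison (r from -0.20 to 0.15 in Rag1-/- hosts, -0.17 to 0.14 at day 4, -0.20 to 0.45 at day 6), although at day 6 replicates 1 and 4 did, at 0.45 and 0.35, so the numbers were not taken to pair the samples. The block, in which day 4 KO replicate 5 has no same-numbered WT tumour and adds nothing to the estimate, gave 1 called gene at day 4, 198 for the difference between hosts and 0.31 for Nkg7 at day 4, and Gzmf in Rag1-/- hosts at an adjusted p of 0.0254. The counts over all genes moved more. DESeq2 called 1055 in culture, 689 at day 4, 166 at day 6 and 663 for the difference, against 39, 5, 0 and 336 by limma. Culture had 12 without the trend and 25 by edgeR, and day 4 had 9 without a filter. Leaving out 1 library gave 2 to 1655 in culture and 1984 to 3093 in Rag1-/- hosts. It gave 3 to 50 at day 4, 0 to 5 at day 6 and 154 to 472 for the difference. Counts were highest without the parental WT culture in culture and without WT replicate 5 in Rag1-/- hosts. For day 4, day 6 and the difference, the highest were without day 4 KO replicate 5, antibody replicate 1 and Rag1-/- KO replicate 3.

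Signs turned only for members that were not called. In Rag1-/- hosts Gzmb was 0.011 by edgeR and 0.013 by DESeq2. At day 4, Gzmf was -0.023 with a pseudocount of 5, and edgeR and DESeq2 gave -0.41 and -0.43 for Gzmd, -0.29 and -0.30 for Gzme and -0.42 and -0.43 for Gzmf. At day 6, Nkg7 was 0.091 by edgeR and 0.093 by DESeq2. With 1 library left out, Gzma and Gzmb in Rag1-/- hosts ran from -0.09 to 0.16 and from -0.24 to 0.10. At day 4, Gzma ran from -0.59 to 0.12, Gzmc from -0.25 to 0.51, Gzmd from -0.52 to 0.82, Gzme from -0.63 to 0.66, Gzmf from -0.59 to 0.64 and Nkg7 from -0.64 to 0.31. At day 6, Gzma ran from -0.087 to 0.27, Gzmc from -0.77 to 0.14, Gzmd from -0.033 to 1.14, Gzme from -0.35 to 0.69, Gzmg from -0.20 to 1.18 and Nkg7 from -0.94 to 0.37. Other estimates kept their sign but moved, at day 4 Gzmb from -0.86 to -0.25, Gzmg from -1.27 to -0.03 and Prf1 from -0.82 to -0.01, and at day 6 Gzmb from -0.88 to -0.19, Gzmf from 0.31 to 1.52, Gzmk from -1.32 to -0.15 and Prf1 from -1.25 to -0.245. The cause of these shifts was not tested. Gzmg at day 6 has no adjusted p in DESeq2, and edgeR was not run on the difference between hosts. Gzme, Gzmf, Gzmg and Gzmk rest on few reads in many libraries, which limits what can be seen of them.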
